A study of Mus musculus with 2 samples.

Results

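The genes of the contractile apparatus and of calcium handling in skeletal muscle were followed through single-cell libraries of mouse tibialis anterior muscle, a fast muscle of the lower leg. The set was a fixed list of 39 genes, matched by symbol to the 33696 genes of the count tables. All 39 were found. The list covers the actin and myosin filaments, the Z-disc, the calcium store and its release, the calcium pump, and the proteins that buffer phosphate energy and oxygen in the fibre. It was not ranked or filtered by a measured value, but it was chosen with earlier results of these data known.

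There were 2 groups with 1 library each, labelled WT and KO, both from male mice. Each library was made from 10 tibialis anterior muscles of 5 mice, pooled before digestion with collagenase and dispase, so the mice within a library cannot be told apart. The labels state neither the gene deleted in the KO mice, nor the allele or driver, nor the age, and they do not spell out "ND", which both library names carry. The series concerns IGF-I made by resident mesenchymal progenitors of muscle, and the labels call the cells FAPs (fibro-adipogenic progenitors), but the stated sort removed dead cells only, and barcodes past a marker gate for FAPs were 13.5% of those kept in the WT library and 4.94% in the KO library. With 1 library per genotype there was no replicate check and no test between genotypes. Every interval below is a 95% interval that covers counting error only, and a difference between the libraries cannot be told apart from a difference between 2 preparations.

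A sarcomere is built from thin filaments of actin, carrying tropomyosin and the troponin complex, which slide past thick filaments of myosin between 2 Z-discs. An action potential opens the ryanodine receptor of the sarcoplasmic reticulum, calcium binds troponin C, and a calcium ATPase then pumps the ion back into the store, where calsequestrin holds it. Most of these proteins exist as fast and slow forms from separate genes. Fast glycolytic fibres use the myosin heavy chain genes Myh4 (type IIb) and Myh1 (type IIx), fast oxidative fibres use Myh2 (type IIa), and slow fibres use Myh7. Myh3 and Myh8 are the embryonic and perinatal forms.

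The WT library held 11360 barcodes with 38014703 unique molecular identifiers (UMIs, which count captured RNA molecules) and the median barcode carried 2688.5. In the KO library 19531 barcodes carried 101570863 UMIs, at a median of 4010. Barcodes with at least 500 detected genes and at most 10% mitochondrial UMIs were kept, 10272 in WT and 18554 in KO. The libraries shared 61 barcode sequences, none of them a myofibre or a satellite barcode in both. Members took 1.44% of all UMIs in WT and 1.18% in KO.

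Myofibre barcodes were gated on 18 muscle genes outside the member list, such as Eno3 and Pygm of glycolysis and Cox6a2 of the respiratory chain. A barcode needed at least 10 UMIs from at least 5 of these genes and at least 1% of its UMIs in them. The gate held 473 WT barcodes, 4.60% of those kept (4.21 to 5.03%), and 746 KO barcodes, 4.02% (3.74 to 4.31%). The filter on detected genes and mitochondrial UMIs weighed on these shares, since it left 484 of the 932 WT and 770 of the 1108 KO barcodes past the myofibre gate, before those past a second gate were set aside. Over all deposited barcodes the shares were 8.09% and 5.54%. A myofibre is a long syncytium with many nuclei, so a barcode here is not a whole fibre. Median depth was 1841 UMIs in WT and 2419 in KO, and the median mitochondrial share was 0% and 0.0195%, against 2.47% and 2.21% in satellite barcodes. The gate's own genes summed to 24055 CPM in WT (UMIs scaled to a sum of 1000000 per class and library) and 23005 in KO. Satellite markers summed to 40.7 and 51.2 CPM and FAP markers to 72.6 and 62.0 CPM. Endothelial markers summed to 81.4 CPM in WT and 182 CPM in KO.

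Members made up 30.2% of the UMIs of the myofibre barcodes in WT (30.1 to 30.3%) and 31.9% in KO (31.9 to 32.0%). Of all member UMIs in kept barcodes, 73.2% lay in these barcodes in WT and 67.7% in KO. Fold differences were read only where a gene reached 20 CPM in a library and had 100 or more UMIs in the 2 libraries together, and a difference of 2-fold or more was called. The floors left 26 of the 39 members, among them 13 of the 14 fast genes, 13 of the 14 genes not assigned to a fibre type, none of the 9 slow genes and neither developmental myosin. No member was at least 2-fold higher in KO, where 2.67% of the 3299 genes past the floors were. Among the members, Myh1 alone was at least 2-fold lower in KO, against 0.485% of all genes past the floors. That is 1 of 26 members called in either direction, beside 3.15% of all genes. The median log2 ratio of KO to WT, with 1 CPM added to both, was 0.01 over these members and -0.00 over all genes past the floors. It was above 0 for 13 members and below 0 for 13.

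**Figure D1:**
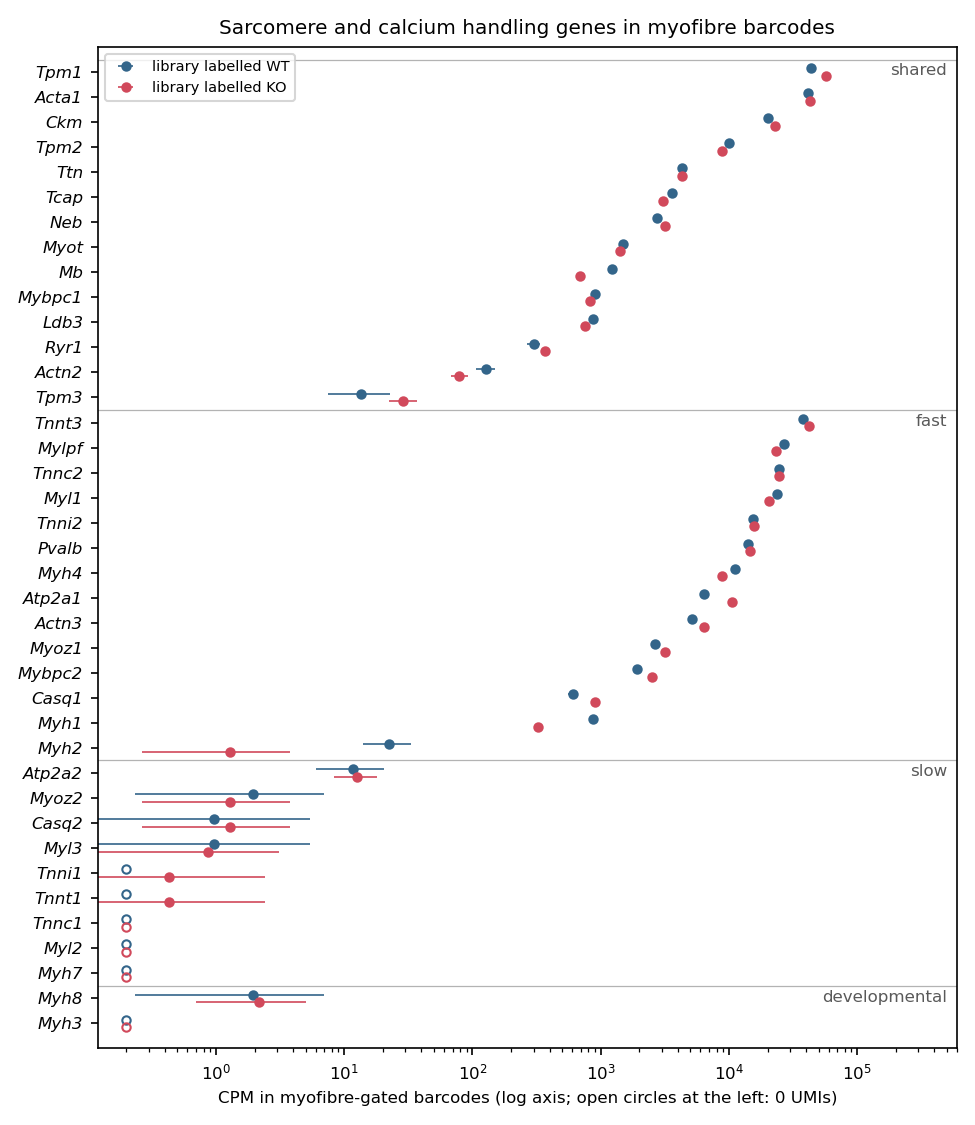
Level of each member in the myofibre barcodes on a log axis in CPM, with exact Poisson intervals, blue for the 473 WT barcodes and red for the 746 KO barcodes. The members not assigned to a fibre type (drawn as shared) and the fast members span 1.29 CPM to 57015 CPM, and no slow member passes 12.5 CPM in either library.

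The thin filament held the most abundant members. A 3′ library counts each molecule once whatever its length, so levels of different genes are set side by side here on the CPM scale without a length correction. Acta1, the skeletal muscle actin, stood at 41388 CPM in WT and 42605 CPM in KO, a log2 ratio of 0.04 (0.03 to 0.06), and every myofibre barcode held it. Tpm1, an alpha tropomyosin, stood at 43603 CPM and 57015 CPM, a log2 ratio of 0.39 (0.37 to 0.40), and its median share of a barcode was 4.35% in WT and 5.66% in KO. Tpm2, the beta tropomyosin, was at 10084 CPM and 8757 CPM. The fast troponins followed. Tnnt3, which ties the troponin complex to tropomyosin, was at 37509 and 41858 CPM, Tnnc2, the calcium sensor, at 24730 and 24391 CPM, and Tnni2, the inhibitory subunit, at 15288 and 15794 CPM. Their log2 ratios ran from -0.02 to 0.16. Neb, the giant protein along the thin filament, was at 2739 CPM in WT and 3167 CPM in KO.

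The promoter of Acta1 is shown because it is the reference gene for the comparisons across cell types further on. It comes from RefSeq on build GRCm38.p6, 250 bases up to the RefSeq start, chr8:123894776-123895025 on the minus strand. That start lies 24 bases before the one in the GENCODE annotation. Capitals mark matches on either strand to an E-box (CANNTG, the core bound by MyoD-type factors), a TATA box (TATAAA), a CArG box (bound by serum response factor) or a MEF2 motif.
Acta1: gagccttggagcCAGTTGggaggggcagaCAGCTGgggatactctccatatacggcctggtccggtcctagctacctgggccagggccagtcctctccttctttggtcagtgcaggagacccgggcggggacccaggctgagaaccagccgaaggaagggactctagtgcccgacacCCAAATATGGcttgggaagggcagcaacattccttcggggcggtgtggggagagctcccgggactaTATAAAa
This window held 2 E-boxes, 1 CArG box and 1 TATA box. A promoter was in the RefSeq table for 31 of the 39 members. Of its 32851 promoters, 66.2% held an E-box, 12.4% a TATA box, 1.47% a CArG box and 2.92% a MEF2 motif. Of the 31 members, 27 held an E-box, 8 a TATA box, 4 a CArG box (Acta1, Ldb3, Myh4 and Myl3) and 7 a MEF2 motif (Casq2, Myh1, Myh4, Myh8, Myoz2, Pvalb and Ttn). The shares over all promoters count windows, while these counts are of genes, and some members had several windows. Of the 39 windows of the members, 84.6% held an E-box, 20.5% a TATA box, 12.8% a CArG box and 17.9% a MEF2 motif. A match is a stretch of letters, and no binding was measured.

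Of the thick filament, Myh4 was the main heavy chain gene. It stood at 11102 CPM (10900 to 11308) in WT and 8884 CPM (8763 to 9006) in KO, a log2 ratio of -0.32. Myh1 stood at 866 CPM (810 to 925) in WT and 322 CPM (299 to 346) in KO, a log2 ratio of -1.42 (-1.57 to -1.28). It was seen in 20.3% of WT and 8.71% of KO myofibre barcodes. A single KO barcode held 32.2% of the Myh1 UMIs of its library, and without the top barcode of each library the log2 ratio was -1.90. The ratio ended short of 2-fold, at -0.97, when the glycolytic genes were left out of the gate. Myh2 had 23 UMIs in 17 WT barcodes, 22.3 CPM, and 3 UMIs in 1 KO barcode, 1.29 CPM, which is under the floor of 100 UMIs, so no fold was read. Myh7 and Myh3 had 0 UMIs in both libraries, which allows up to 2.91 CPM in WT and 1.29 CPM in KO, and Myh8 had 2 and 5 UMIs. These genes are close copies, so reads shared between them may have been dropped or split in the authors' counting, and their levels are less certain than those of the other members.

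Myh2, Myh1 and Myh4 lie next to each other on the plus strand of chromosome 11, at positions 67171027 to 67197517, 67200052 to 67224575 and 67238029 to 67260446 of GRCm38, with Myh3 before them and Myh8 after them. Their upstream sequences are set out together because the levels of these neighbours differed so widely in the same barcodes. Each is 250 bases from RefSeq on build GRCm38.p6, plus strand, with the same motifs in capitals, at chr11:67237562-67237811 for Myh4, chr11:67199852-67200101 for Myh1 and chr11:67170777-67171026 for Myh2. These windows end at the RefSeq start, which lies 217 bases before the GENCODE start for Myh4 and 50 bases past it for Myh1, so the windows of these neighbours are not placed alike on the annotation that gave the positions above.
Myh4: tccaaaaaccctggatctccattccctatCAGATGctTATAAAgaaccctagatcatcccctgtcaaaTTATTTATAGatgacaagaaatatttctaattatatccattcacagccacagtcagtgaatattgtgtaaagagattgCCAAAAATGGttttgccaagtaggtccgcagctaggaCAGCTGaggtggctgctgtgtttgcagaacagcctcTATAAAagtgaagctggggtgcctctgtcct
Myh1: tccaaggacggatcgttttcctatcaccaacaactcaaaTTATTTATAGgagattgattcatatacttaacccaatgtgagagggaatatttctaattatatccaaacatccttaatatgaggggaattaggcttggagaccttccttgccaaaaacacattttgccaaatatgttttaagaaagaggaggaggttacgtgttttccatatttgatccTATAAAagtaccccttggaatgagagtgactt
Myh2: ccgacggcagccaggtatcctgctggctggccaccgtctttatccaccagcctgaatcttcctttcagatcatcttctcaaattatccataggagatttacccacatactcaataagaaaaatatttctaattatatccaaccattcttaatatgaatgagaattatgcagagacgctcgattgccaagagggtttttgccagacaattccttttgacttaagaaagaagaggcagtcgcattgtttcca
The Myh4 window held 2 E-boxes, 3 TATA matches, 1 CArG box and 1 MEF2 motif. The Myh1 window held 2 TATA matches and 1 MEF2 motif and no E-box or CArG box. In both windows a TATA match overlaps the MEF2 motif. The Myh2 window held none of these motifs. Its last bases resemble a stretch of the Myh1 window that lies before the Myh1 TATA match nearest the start. The Myh2 window may thus end short of the matching stretch, so its lack of a TATA match cannot be read. No link between motifs and levels was tested.

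Among the other thick filament genes, the fast light chains were abundant in both libraries. Mylpf, the fast regulatory light chain, was at 27067 CPM in WT and 23422 CPM in KO, and Myl1, the fast essential light chain, at 23496 and 20489 CPM, with log2 ratios of -0.21 and -0.20. Mybpc2, the fast myosin binding protein C, was at 1928 and 2506 CPM (log2 ratio 0.38), and Mybpc1, its slow counterpart that fast fibres also use, at 897 and 831 CPM. Ttn, the spring that spans from Z-disc to M-line, was at 4323 and 4284 CPM. Its share varied widely from barcode to barcode, with quartiles of 0.0947% and 0.513% in WT and 0.0899% and 0.609% in KO.

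No Z-disc gene past the floors was 2-fold apart between the libraries. Actn3, the alpha-actinin of fast fibres, stood at 5108 CPM in WT and 6340 CPM in KO (log2 ratio 0.31). Actn2, the alpha-actinin of all fibre types, was far lower, at 127 CPM (106 to 151) and 79.2 CPM (68.2 to 91.5), a log2 ratio of -0.67 (-1.01 to -0.34). Tcap, the telethonin that caps titin, was at 3618 and 3036 CPM. Myoz1, a calsarcin of fast fibres, was at 2646 and 3145 CPM. Myot and Ldb3, which bind alpha-actinin, were at 1482 and 1419 CPM and at 868 and 754 CPM.

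The calcium genes included the member with the highest positive ratio. Atp2a1, the fast calcium pump SERCA1, stood at 6359 CPM (6207 to 6515) in WT and 10498 CPM (10367 to 10631) in KO, a log2 ratio of 0.72 (0.68 to 0.76). Its median share of a barcode was 0.572% in WT and 1.03% in KO, and it was seen in 470 of 473 WT and all 746 KO barcodes. The log2 ratio lay between 0.71 and 0.78 under all 9 alternative settings. Casq1, the fast calsequestrin, was at 607 CPM (561 to 657) and 899 CPM (861 to 938), a log2 ratio of 0.56. Ryr1, the release channel, was at 300 and 368 CPM (log2 ratio 0.29), and Pvalb, the soluble calcium buffer of fast fibres, at 14201 and 14716 CPM (log2 ratio 0.05).

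Ckm, the muscle creatine kinase, was at 20011 CPM in WT and 22992 CPM in KO, a log2 ratio of 0.20. Mb, myoglobin, the oxygen store of oxidative fibres, was at 1235 CPM (1168 to 1305) in WT and 689 CPM (656 to 724) in KO, a log2 ratio of -0.84 (-0.95 to -0.73). It was seen in 48.6% of WT and 37.9% of KO myofibre barcodes. Cox8b and Cox7a1, subunits of respiratory complex IV that belong to the gate and were picked out after their values were seen, stood at 1638 and 666 CPM in WT and at 821 and 315 CPM in KO. The other 16 gate genes summed to 21751 and 21869 CPM. Cox6a2, another respiratory chain gene of the gate, is among those 16, and its level was not read on its own.

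Genes outside the contractile set also differed between the myofibre barcodes of the 2 libraries. Fos, an immediate early gene, stood at 72.6 CPM in WT and 475 CPM in KO, Atf3 at 25.2 and 127 CPM, the heat shock gene Hspa1a at 10.7 and 52.1 CPM, and the haemoglobin gene Hbb-bs at 4.84 and 85.3 CPM. These were named after their values were seen. Their part in the member differences was not tested.

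A second list held 50 further sarcomere and excitation-contraction genes, among them the dihydropyridine receptor subunits, triadin, junctophilins, myomesins and assembly factors. Of these, 39 passed the floors, 2 were at least 2-fold higher in KO (all genes, 2.67%) and 1 was at least 2-fold lower (all genes, 0.485%), with a median log2 ratio of 0.01. Mybph, a myosin binding protein H, had 12 UMIs in WT and 121 in KO, 11.6 and 52.1 CPM, a log2 ratio of 2.07 (1.31 to 3.16). Xirp1, an actin-binding repeat protein, stood at 20.3 and 46.1 CPM (log2 ratio 1.14). Hspb7, a small heat shock protein that binds filamin, stood at 133 and 51.7 CPM (log2 ratio -1.34), and Synpo2l at 54.2 and 29.3 CPM (log2 ratio -0.87). Desmin (Des), the intermediate filament around the Z-disc, was at 3293 and 3803 CPM.

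The fast forms made up nearly all of each fast and slow pair in the myofibre barcodes. Over the 14 fast and 9 slow genes, 176482 UMIs were fast and 16 slow in WT. In KO 402387 were fast and 39 slow, and the fast share was 99.99% in both libraries. The slow sum leaves out Mybpc1, with 926 and 1930 UMIs, and Tpm3, which were not assigned to a fibre type. Most of the slow UMIs came from Atp2a2, the slow and housekeeping calcium pump SERCA2, with 12 and 29 UMIs. Tnnt1, Tnni1, Tnnc1 and Myl2 had 0 UMIs in WT, and Tnnc1 and Myl2 had 0 in KO as well. Tnnt1 and Tnni1 had 1 UMI each in KO. Myl3 had 1 and 2 UMIs, Casq2 1 and 3, and Myoz2 2 and 3. Tpm3, the slow tropomyosin that other cell types use too, was at 13.6 and 28.8 CPM with 14 and 67 UMIs, under the floor of 100. Mybpc2 and Mybpc1 were the exception among the 9 pairs, with a Mybpc2 share of 68.3% (66.5 to 69.9%) in WT and 75.1% (74.1 to 76.1%) in KO.

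Among the adult heavy chains, Myh4 took 92.6% of the UMIs in WT (92.1 to 93.0%) and 96.5% in KO (96.2 to 96.7%), Myh1 7.22% and 3.498%, and Myh2 0.186% and 0.0140%. Barcodes with at least 5 adult Myh UMIs were called led by a gene that held at least 80% of them. Of 418 such WT barcodes, Myh4 led 367, or 87.8% (84.3 to 90.8%), Myh1 led 23, or 5.50% (3.52 to 8.14%), and in 28 no gene led. Of 602 such KO barcodes, Myh4 led 579, or 96.2% (94.3 to 97.6%), Myh1 led 11, or 1.83% (0.916 to 3.25%), and in 12 no gene led. Myh2 and Myh7 led none in either library. A further 55 WT and 144 KO barcodes had too few Myh UMIs.

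**Figure D2:**
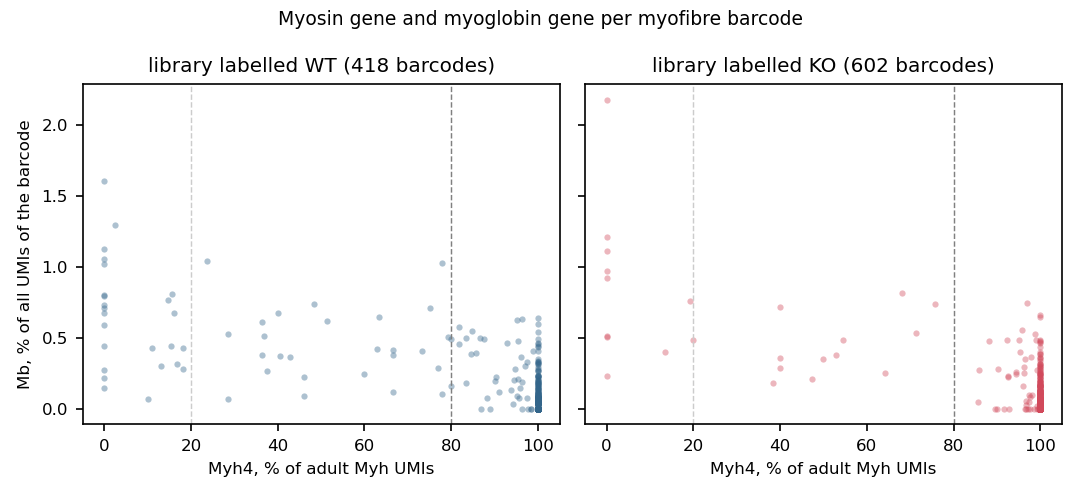
Each point is a myofibre barcode with at least 5 adult Myh UMIs, 418 in WT (left) and 602 in KO (right). The x axis is the Myh4 share of the barcode's adult Myh UMIs in percent, the y axis the Mb share of all its UMIs in percent, and the dashed lines stand at 20% and 80%. Most barcodes lie at the right edge, and the barcodes near 0% Myh4 reach the highest Mb shares.

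Barcodes led by Myh1 were compared with those led by Myh4 within each library. Mb and Actn2 were at least 2-fold higher with Myh1 in both. Mb was at 6657 CPM in Myh1-led and 737 CPM in Myh4-led WT barcodes, a log2 ratio of 3.17 (2.97 to 3.38). In KO the levels were 8766 and 574 CPM, and the log2 ratio 3.93 (3.74 to 4.12). Actn2 was at 563 and 88.1 CPM in WT and at 861 and 61.8 CPM in KO, log2 ratios of 2.66 and 3.78 that rest on 24 and 27 UMIs in the Myh1-led barcodes.

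Actn3, Mybpc2 and Pvalb were at least 2-fold lower with Myh1 in both. Actn3 was at 1711 CPM in Myh1-led and 5404 CPM in Myh4-led WT barcodes and at 1753 and 6440 CPM in KO. Pvalb was at 6141 and 15082 CPM in WT and at 3220 and 15148 CPM in KO. Mybpc2 had log2 ratios of -1.14 and -1.48. Tpm1 came close in WT, with a log2 ratio of -0.99, and was lower by more in KO, at -1.73. Of the 24 members past the floors other than the heavy chains, 9 were higher with Myh1 in both libraries, among them Mybpc1, Tcap and Myot. Lower in both were 14, among them the fast troponins, light chains and Atp2a1. Among the 9, intervals that hold 0 were those of Ryr1, at 0.07 (-0.82 to 0.84) in WT and 0.64 (-0.09 to 1.30) in KO. So was that of Ldb3 in WT, at 0.36 (-0.10 to 0.79). Neither the 2-fold calls nor the signs were counted over all genes, so no share stands beside them. Neb was on opposite sides of 0, at 0.11 and -0.01. The KO values rest on 11 barcodes, and 1 of them held 24.4% of the Mb and 40.7% of the Actn2 UMIs. Myh1-led and Myh4-led barcodes share a library and its preparation, and the members are not independent of each other.

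**Figure D3:**
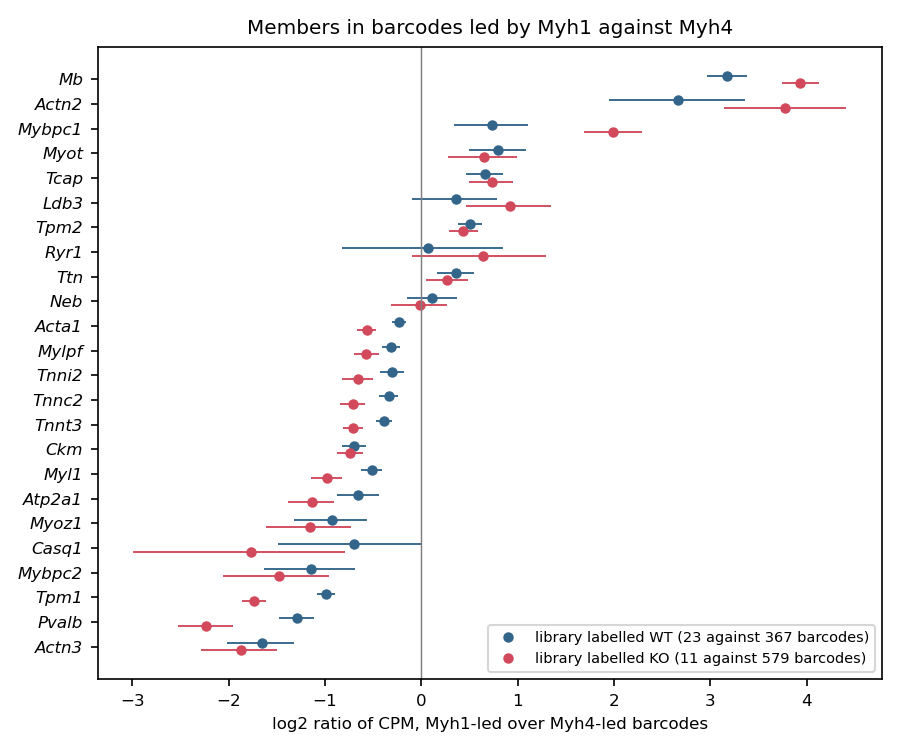
Log2 ratio of CPM between Myh1-led and Myh4-led myofibre barcodes for the 24 members past the floors other than the heavy chains, with exact counting intervals, blue for WT (23 against 367 barcodes) and red for KO (11 against 579). Mb and Actn2 lie furthest to the right and Actn3, Pvalb and Tpm1 furthest to the left by the mean of both libraries.

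The difference between the libraries was then taken within Myh4-led barcodes alone. There Mb stood at 737 CPM in WT and 574 CPM in KO, a log2 ratio of -0.36 (-0.50 to -0.22), against -0.84 over all myofibre barcodes. The Atp2a1 levels were 6652 and 10532 CPM and the log2 ratio 0.66 (0.62 to 0.71), against 0.72. Casq1 had a log2 ratio of 0.43, Tpm1 of 0.33 and Myh4 of -0.32. Residual Myh1 in these barcodes was at 107 and 72.6 CPM.

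Satellite cells are the stem cells of muscle, and they were gated on Pax7, Myf5, Calcr, Chodl and 6 other markers. The gate held 691 WT barcodes, 6.73% of those kept, and 842 KO barcodes, 4.54%, with median depths of 3442 and 7526.5 UMIs. Members took 0.210% of their UMIs in WT (0.204 to 0.216%) and 0.309% in KO (0.304 to 0.313%). Of the 39 members 20 passed the floors, and 8 of them were at least 2-fold higher in KO, where 3.43% of all 6420 genes past the floors were. Those 8 were Acta1, Ttn, Tnnt3, Tnnc2, Tnni2, Myoz1, Pvalb and Ckm, with log2 ratios from 1.11 to 2.10. All 8 are myofibre genes. Acta1, for one, was seen in 19.5% of WT and 30.6% of KO satellite barcodes, but most of the KO fast UMIs lay in a few barcodes. The 8 KO barcodes with the most fast UMIs, 1% of the class, held 75.8% of the fast UMIs, and the 6 such WT barcodes held 40.6%. Without that 1% in each library no member was 2-fold higher and 2 were 2-fold lower. The median log2 ratio over the members past the floors went from 0.84 to -0.33. That 1% was picked by fast UMIs and held a larger share of them in KO, so the fast ratio had to fall. The fall is thus no separate result. A looser myofibre gate, which removes barcodes with some myofibre RNA, gave 0 higher, 2 lower and a median of -0.35.

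Some members in satellite cells did not follow the myofibre genes. Mybpc1 stood at 254 CPM (234 to 274) in WT and 151 CPM (141 to 161) in KO, a log2 ratio of -0.75 (-0.90 to -0.60), between -0.77 and -0.69 under all 10 alternative settings. It was seen in 47.5% of WT and 47.3% of KO satellite barcodes. After each barcode was thinned to 1000 UMIs, which left out 5 WT and 3 KO barcodes, those shares were 20.6% (17.6 to 23.8%) and 12.3% (10.1 to 14.7%). In T cells, which should lack the gene, it was seen in 2.29% of WT and 0.714% of KO barcodes at median depths of 3682 and 7728.5 UMIs.

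Tnnt1, the slow troponin T, was the member that was at least 2-fold lower in KO satellite barcodes, where 2.63% of all genes were. With it, 9 members were called in either direction, beside 6.06% of all genes. It stood at 70.4 CPM in WT and 29.6 CPM in KO, with 178 and 188 UMIs and a log2 ratio of -1.22 (-1.55 to -0.95), between -1.28 and -1.13 under the same settings. Thinned to 1000 UMIs, it was seen in 7.29% of WT (5.46 to 9.50%) and 3.22% of KO barcodes (2.13 to 4.65%), and unthinned in 18.8% and 15.2%. No T cell held it, among 131 WT and 140 KO barcodes, which by the limit of 3 counts allows up to 2.29% and 2.14% of barcodes with a UMI (exact upper bounds 2.78% and 2.60%). Tpm3 stood at 492 and 598 CPM and Atp2a2 at 228 and 327 CPM. The markers of the gate also differed between the libraries. Their sum was 3294 CPM in WT and 2697 CPM in KO, Pax7 stood at 393 and 263 CPM, Calcr at 376 and 165 CPM, and Myod1 at 126 and 210 CPM. Myog, a gene of differentiating myoblasts, had 20 UMIs in WT and 3 in KO. Their part in the Mybpc1 and Tnnt1 values was not tested.

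In the satellite barcodes 8 of the 50 further sarcomere and excitation-contraction genes passed the floors. Of these, 3 were at least 2-fold lower in KO (all genes, 2.63%) and 1 was at least 2-fold higher (all genes, 3.43%). Cryab, a small heat shock protein, stood at 624 and 249 CPM (log2 ratio -1.32), Mylk2 at 21.8 and 8.34 CPM (-1.28), and Jsrp1, a sarcoplasmic reticulum protein, at 97.4 and 46.4 CPM (-1.05). Xirp2 was the higher one, with 30 and 159 UMIs (1.02), but 1 KO barcode held 44.0% of its UMIs. Without the top barcode of each library its log2 ratio was 0.52, short of 2-fold, while those of the other genes lay between -1.35 and -1.04. These 4 were named after their values were seen.

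Fast fibre genes were present at a low level in the barcodes of every other cell type. Over 12 classes other than myofibres the 14 fast genes summed to between 337 and 943 CPM in WT and between 152 and 975 CPM in KO, against 170930 and 173265 CPM in myofibre barcodes. The median barcode of each class held 1 UMI of them in both libraries. In T cells they summed to 337 CPM (289 to 391) in WT and 182 CPM (158 to 209) in KO, and 1 WT barcode held 42.6% of that sum. The sum was higher in KO in 4 classes and lower in 8. Between 32.0% and 59.0% of the fast UMIs of a class in WT, and between 4.22% and 75.8% in KO, lay in the top 1% of its barcodes. Without those barcodes the sums lay between 195 and 553 CPM in WT and between 146 and 631 CPM in KO.

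**Figure D4:**
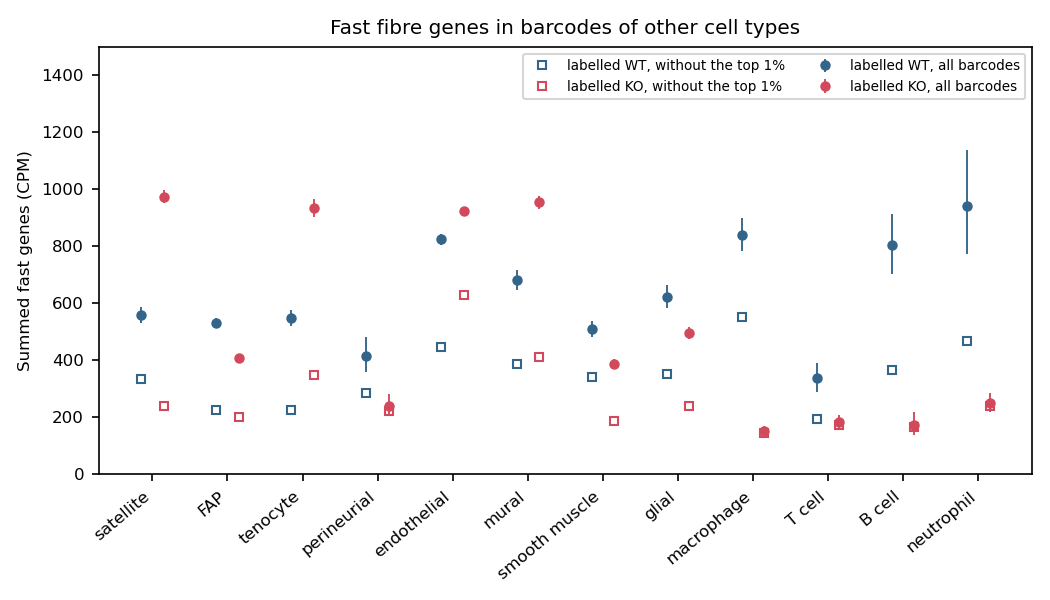
Summed level of the 14 fast genes in CPM in 12 classes other than myofibres, blue for WT and red for KO. Filled circles with exact Poisson intervals are all barcodes of a class and open squares leave out the 1% with the most fast UMIs, and in the KO satellite barcodes the value goes from 975 to 239 CPM.

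RNA from a single source keeps its genes in a fixed ratio, so the ratio of each member to Acta1 was set against that in the myofibre barcodes of the same library. Tnnt3 stayed between 0.788 and 1.48 times the myofibre ratio over the 12 classes in WT and between 0.601 and 1.42 times in KO, Myl1 between 0.566 and 1.56 times and between 0.769 and 1.66 times, and Myh4 between 0.533 and 3.12 times and between 0.343 and 3.56 times. Other myofibre genes ranged further. Neb reached 6.12 times the myofibre ratio in WT and 29.2 times in KO, Ttn 6.29 and 7.10 times, and Ryr1, with no more than 16.1 CPM in any of these classes, 15.6 and 81.1 times. A ratio at least 5 times that of the myofibre barcodes in both libraries was found in at least 1 class for 20 members, of which 13 had at least 10 UMIs there in each library. The 13 were Tpm3, Atp2a2, Casq2, Tpm1, Tpm2, Actn2, Ldb3, Tcap, Mybpc1, Tnnt1, Myh2, Tnni1 and Ttn. For Tnnt1, Tnni1 and Casq2 the myofibre ratio rests on 0 or 1 UMI in WT and on 1 to 3 UMIs in KO, and for Myh2 on 3 in KO, so the multiple itself cannot be read. Of the other 7, Myh3, Myh7, Myl2 and Tnnc1 had no UMI in WT myofibre barcodes, so any UMI in another class passed in that library. With a myofibre count under 3 UMIs set to 3, the same 13 passed. The rule was not applied to all genes, so no share stands beside these counts. Acta1 itself stood at 72.8 to 247 CPM over the 12 classes in WT and 23.0 to 250 CPM in KO. A gene that is not particular to fibres can thus pass easily, and the counts are no result about the members as a set. Tpm3 passed in all 12 classes, at 257 to 834 CPM in WT and 299 to 821 CPM in KO, and Atp2a2 in 11 of them.

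Smooth muscle barcodes, gated on Myh11, Acta2 and related genes, held the most members of this kind. Tpm1 stood at 4161 CPM in WT and 4005 CPM in KO and Tpm2 at 2862 and 2297 CPM. Ldb3 stood at 76.5 and 59.98 CPM, a ratio to Acta1 of 40.0 and 40.4 times that of myofibre barcodes, and Tcap at 49.7 and 33.7 CPM, 6.22 and 5.64 times. Atp2a2 was at its highest there, at 862 and 743 CPM. Myh2 stood at 9.22 and 3.12 CPM and Tnni1 at 4.81 and 1.97 CPM. Tnni1 was not at its highest there. Among the 12 classes its level was highest in perineurial barcodes, at 29.9 CPM in WT and 13.1 CPM in KO. Those levels rest on 13 and 8 UMIs, and the KO count was under the UMI floor for naming. In mural barcodes, gated on pericyte genes such as Rgs5 and Kcnj8, Tpm2 stood at 437 and 475 CPM and Actn2 at 39.4 and 46.0 CPM. Ttn passed in T cells, at 46.0 and 22.2 CPM, with 24 and 25 UMIs.

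Casq2, the calsequestrin of cardiac and slow muscle, was nearly absent from myofibre barcodes and was found in mural and smooth muscle barcodes. It stood at 352 CPM (328 to 377) in WT and 191 CPM (181 to 201) in KO mural barcodes and at 254 CPM (235 to 275) and 180 CPM (169 to 191) in smooth muscle barcodes. The WT value was the higher in both classes. It was seen in 47.1% of WT and 44.1% of KO mural barcodes, and in 28.1% (24.9 to 31.4%) and 15.9% (14.0 to 17.9%) after thinning to 1000 UMIs. In smooth muscle the shares were 43.7% and 46.1%, or 21.0% and 13.3% after thinning. T cells held no Casq2 UMI in either library. Its sequence upstream of the start is given as that of a member whose cells were not the myofibres, 250 bases from RefSeq on build GRCm38.p6, plus strand, chr3:102086165-102086414, with the motifs named above in capitals.
Casq2: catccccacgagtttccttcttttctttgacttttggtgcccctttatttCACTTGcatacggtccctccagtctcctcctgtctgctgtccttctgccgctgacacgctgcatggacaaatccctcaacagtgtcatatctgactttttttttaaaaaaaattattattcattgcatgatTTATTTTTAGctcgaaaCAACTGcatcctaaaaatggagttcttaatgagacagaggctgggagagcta
This window held 2 E-boxes and 1 MEF2 motif and no CArG or TATA match.

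**Figure D5:**
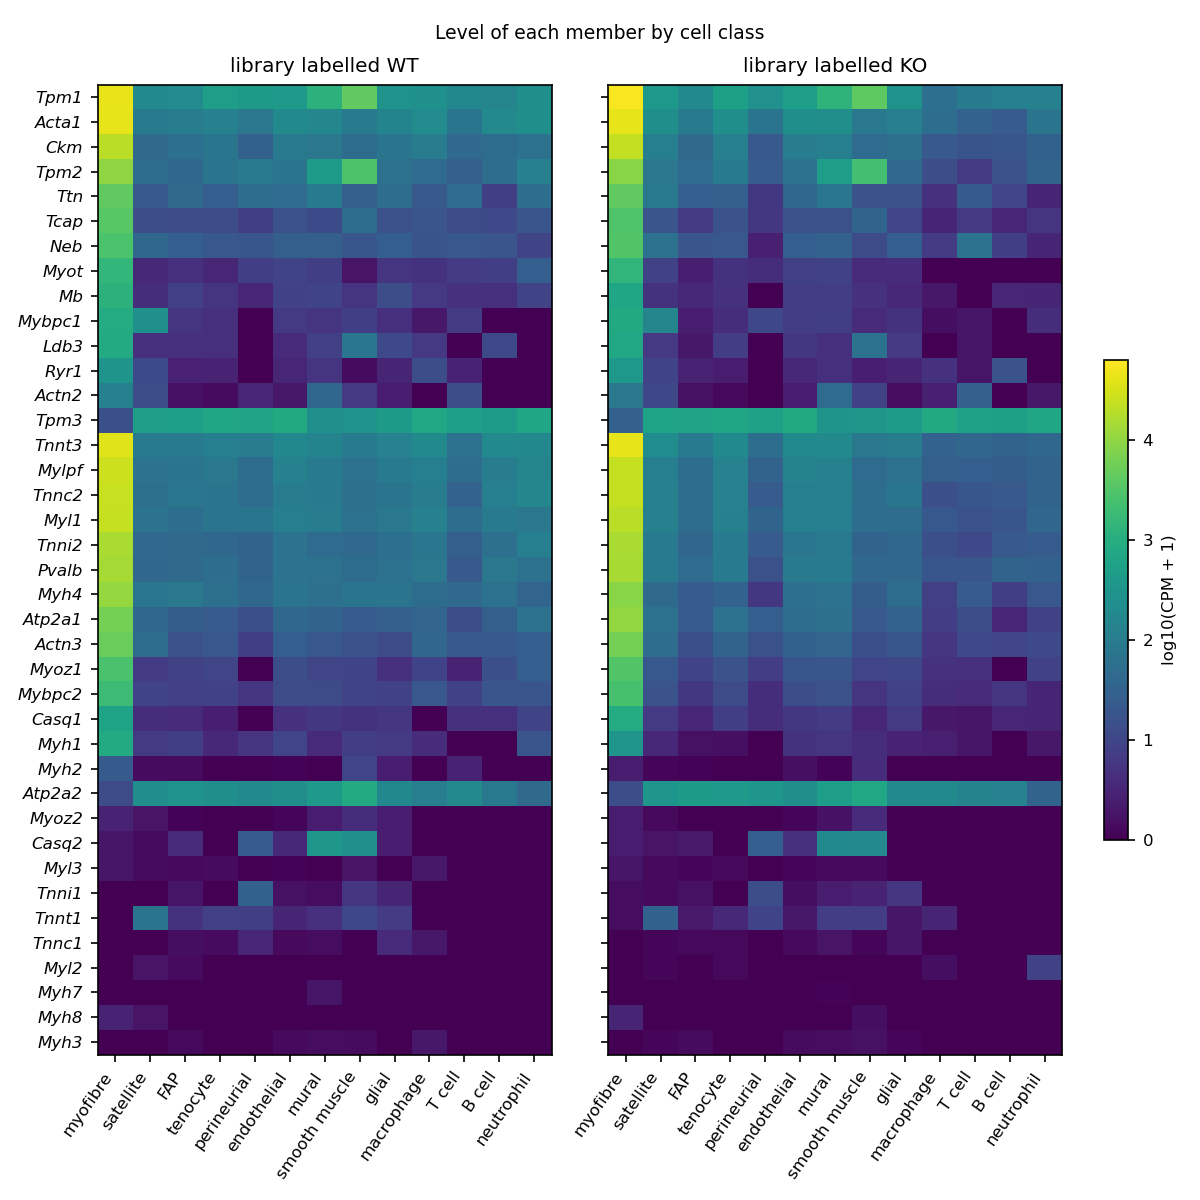
Level of each of the 39 members as log10 of CPM plus 1 in 13 cell classes, WT on the left and KO on the right, from dark (0) to yellow (high). The myofibre column is brightest for the fast members and most members not assigned to a fibre type, and Tpm3, Atp2a2 and Casq2 are brighter in other columns.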

How the data were processed

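Raw UMI counts per gene and barcode were deposited by the authors, 1 filtered matrix per library, from 3′ libraries (10x Genomics GEM-X chemistry, per the labels' protocols). The submitters' processing notes name Cell Ranger 9.0.0 and mm10, while the file headers give 8.0.0 for WT and 9.0.0 for KO. The step that removed empty barcodes is not given in the sources used here.

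From these counts, barcodes with 500 or more genes and no more than 10% mitochondrial UMIs were kept and put in 14 classes by summed marker genes, none of them a member. Classes other than myofibres needed at least 3 UMIs from at least 2 markers and a share set on that share's distribution. Barcodes past the gates of more than 1 class (407 in WT, 1177 in KO) were left out as possible doublets, no doublet caller was run, and 924 and 2110 had no class. Erythroid barcodes (3 and 7) were not described further. Counts were summed per class and library, scaled to CPM and given exact Poisson, Clopper-Pearson or conditional binomial intervals, and a count of 0 the limit of 3 counts, with numpy 2.4.6 and scipy 1.17.1. No test was run, since each genotype had 1 library. TMM factors (edgeR 4.0.16), other gates, filters, floors and pseudocounts were tried as alternatives. The 2-fold call and the interval of the log2 ratio were tested on simulated Poisson sums with the pooled myofibre profile. The gates, the thinning and the spread between barcodes were not simulated.

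All members were described, fold differences only past 20 CPM in 1 library and 100 UMIs over both. Of the 50 other genes, the 4 furthest from 0 in myofibres were named. In other classes, members at 5 times the myofibre ratio to Acta1 were counted, and a floor of 10 UMIs was added afterwards for those named. Members, lists and gates were chosen with earlier results of these data known. Gene positions come from GENCODE M21 (all 39 members matched by identifier) and promoters from RefSeq, both on GRCm38, the assembly that mm10 names.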

Additional observations from a re-analysis of the deposited data

Results flagged for a closer look

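The summed fast fibre genes moved in opposite directions in 2 classes that should hold little of them. In satellite barcodes the log2 ratio of KO to WT was 0.81, and in T cell barcodes it was -0.89. The difference between these 2 ratios was not tested, since each class had 1 library per genotype. Other classes moved as far or further. The log2 ratio was -2.46 in macrophage, -2.20 in B cell and -1.92 in neutrophil barcodes, and 0.77 in tenocyte barcodes. Of the 12 classes other than myofibres, the sum was higher in KO in 4 and lower in 8. Without the 1% of barcodes with the most fast UMIs the satellite ratio was -0.49, from 335 CPM in WT and 239 CPM in KO. The T cell levels were then 195 and 172 CPM, and the macrophage ratio was -1.92. Of the 12 classes, 3 were then higher in KO and 9 lower. Those barcodes were picked by the fast UMIs themselves, so the sums had to fall.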

How the results depend on the processing

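No paired analysis was possible because each genotype had 1 library. There were 12 alternative settings and 1 added after seeing the data (leaving out the 1% of barcodes with the most fast UMIs). They gave 623 values for 72 results. Of these values, 464 stayed within the counting interval or on the same side of 2-fold, 148 moved and 11 were counted as sign changes. Those 11 were all log2 ratios of members called 2-fold in satellite barcodes. The satellite median log2 ratio also changed sign, with the looser gate and without the top 1%, and is not among the 11. Over all members past the floors, called or not, the sign changed 5 times in myofibre barcodes under 3 settings (3 of them without glycolytic genes) and 27 times in satellite barcodes under 4 settings, 13 with the looser gate and 12 without the top 1%. Other alternatives added after seeing the data are given beside their results.

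Keeping all deposited barcodes gave myofibre shares of 8.09% in WT and 5.54% in KO, a WT satellite share of 6.14% and a KO member share of 31.8% in myofibres. The stricter myofibre gate gave 3.602% and 2.95%, the gate without fast glycolytic genes 3.03% and 1.76%. With barcodes past another gate kept, satellite shares were 8.09% and 5.38%. Member shares of myofibre UMIs became 30.8% and 32.7% with the stricter gate, 29.5% and 31.4% with the looser gate, 29.5% and 31.2% with barcodes past another gate kept, 29.6% and 31.5% with equal weight per barcode, and 31.5% in KO without glycolytic genes. Members at least 2-fold higher numbered 1 with barcodes past another gate kept and 1 without a floor; members 2-fold lower numbered 0 without glycolytic genes and 2 without a floor. The median log2 ratio was 0.053 with the looser gate.

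In satellite barcodes the WT member share became 0.201% with the looser gate, 0.204% with barcodes past another gate kept, 0.216% with equal weight and 0.175% without the top 1%. The KO share became 0.317% with the stricter gate and without glycolytic genes, 0.183% with the looser gate, 0.291% with barcodes past another gate kept, 0.266% with equal weight and 0.167% without the top 1%. Members 2-fold higher numbered 0 with the looser gate, 1 with equal weight and 0 without the top 1%, and those lower numbered 2 with the looser gate and 2 without the top 1%. The median log2 ratio, 0.84 as reported, changed sign to -0.35 with the looser gate and -0.33 without the top 1%, and was 0.38 with equal weight and 0.42 without a floor. Called satellite members changed sign: with the looser gate Acta1 -0.11, Tnnt3 -0.49, Tnnc2 -0.35, Tnni2 -0.46, Pvalb -0.081 and Ckm -0.29, and without the top 1% Ttn -0.20, Tnnt3 -0.55, Tnnc2 -0.32, Tnni2 -0.24 and Ckm -0.19. Most of the KO fast UMIs lay in a few barcodes, and the top 1% was picked by the fast UMIs themselves. The cause of the sign changes was not tested.

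Fast genes in T cells were at 485 CPM (WT) and 230 CPM (KO) when thinned to 1000 UMIs and at 195 CPM in WT without the top 1%. In endothelial barcodes they were at 964 and 1125 CPM with the stricter gate and again without glycolytic genes, 663 and 785 CPM with the looser gate, 952 and 1597 CPM when thinned, and 445 and 631 CPM without the top 1%. In FAP barcodes they were at 630 CPM in WT with the stricter gate and without glycolytic genes, 430 CPM in WT with the looser gate, 445 CPM in KO with barcodes past another gate kept, 502 and 498 CPM when thinned, and 225 and 199.7 CPM without the top 1%. The Myh4 share of adult Myh UMIs was 90.5% and 94.2% without glycolytic genes, 91.9% in WT with barcodes past another gate kept, 97.5% in KO with the stricter gate, and 90.9% and 97.0% when thinned. The KO fast share was 99.995% with the stricter gate, 99.985% with the looser gate, 99.995% without glycolytic genes, 99.984% with barcodes past another gate kept and 99.994% when thinned.

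Depth limits the slow and developmental genes in myofibre barcodes, where 0 UMIs allow up to 2.91 CPM in WT and 1.29 CPM in KO, and the Myh1-led comparison, which rests on 23 and 11 barcodes.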
